A study of Drosophila melanogaster with 2 samples.

Results

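Shared promoters are short stretches of DNA from which 2 or more genes start, and this account describes the Mio binding peaks that lie on them. Chromatin immunoprecipitation followed by sequencing (ChIP-seq) recovers the DNA bound by a protein, and a peak is a region where that DNA piles up, with its summit at the highest point. The chromatin came from whole Drosophila melanogaster larvae at the wandering stage of the third instar, with males and females pooled. The larvae belong to 1 transgenic line, Mio-GFP, whose insertion makes Mio fused to green fluorescent protein (GFP) at its C-terminal end, and the protein was pulled down with an antibody against GFP. The design has a single group, in 2 biological replicates that the labels number 5 and 1. It has no second condition. Differences between peak classes were not tested, and values from each replicate's own list are given beside the main ones where they were computed.

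The authors' optimal list, which they derived from the lists of both replicates and a pooled list, held 1146 peaks. Of these, 29 on the mitochondrial chromosome were set aside. A place on this list does not mean that a peak was found in each replicate's own list, as the matches below show. Of the 1117 nuclear peaks, 239 were members, because protein-coding transcripts of at least 2 different genes started within 500 bp of the summit in the Ensembl annotation. That is 21.4% of the nuclear peaks (95% Wilson interval 19.1 to 23.9%). A further 398 summits had the start of 1 gene within 500 bp and 480 had none. The members named 484 distinct genes of 13968. All intervals reflect only how many peaks or genes were counted, and the read depth of the libraries is unknown.

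Mio is an older name of Mondo, the fly relative of the vertebrate sugar-responsive factors MondoA and ChREBP. It belongs to the leucine zipper proteins with a basic helix-loop-helix domain and pairs with Mlx, called bigmax in flies, and the pair is known to bind the E-box CACGTG. In the compact fly genome many housekeeping genes are arranged head to head, so that a single nucleosome-poor gap serves a gene read to the left and another read to the right. Such promoters often lack a TATA box and carry other short elements, among them TATCGATA, the DNA replication-related element.

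These shared promoters are printed because they span the range of the set: strong peaks with neither word, a ribosomal protein gene, and gaps that hold TATCGATA or CACGTG. Each line gives the plus strand of the dm6 genome between the starts of the 2 divergent genes, so the gene read leftwards begins just before the first base and the gene read rightwards just after the last. No base of a protein-coding exon is included. Capitals mark TATCGATA or CACGTG.
Art3/mRpS10, chr3R:15229409-15229664: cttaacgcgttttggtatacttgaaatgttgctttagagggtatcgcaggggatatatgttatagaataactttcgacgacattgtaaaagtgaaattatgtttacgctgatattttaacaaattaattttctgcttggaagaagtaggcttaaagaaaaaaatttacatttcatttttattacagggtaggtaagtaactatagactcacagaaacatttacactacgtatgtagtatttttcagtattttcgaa
CHMP2B/Tcs5, chr3L:5139396-5139618: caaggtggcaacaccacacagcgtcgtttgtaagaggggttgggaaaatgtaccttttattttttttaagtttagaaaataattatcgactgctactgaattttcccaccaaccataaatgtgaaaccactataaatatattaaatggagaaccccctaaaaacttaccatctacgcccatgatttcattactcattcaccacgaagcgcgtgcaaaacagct
Chro/Ssl1, chr3L:22878985-22879088: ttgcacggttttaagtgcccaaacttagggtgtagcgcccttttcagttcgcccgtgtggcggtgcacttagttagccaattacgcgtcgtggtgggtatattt
RpS27/Nup37, chr3R:25247515-25247657: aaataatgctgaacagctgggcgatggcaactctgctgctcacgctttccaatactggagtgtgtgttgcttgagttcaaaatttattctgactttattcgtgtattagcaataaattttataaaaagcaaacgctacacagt
RpS25/CG4820, chr3R:11216288-11216534: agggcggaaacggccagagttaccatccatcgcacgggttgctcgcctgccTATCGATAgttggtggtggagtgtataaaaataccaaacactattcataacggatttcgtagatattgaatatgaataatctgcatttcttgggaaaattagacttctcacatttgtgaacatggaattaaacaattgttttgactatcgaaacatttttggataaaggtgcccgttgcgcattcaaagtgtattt
Lamtor3/fws, chr2L:17481030-17481230: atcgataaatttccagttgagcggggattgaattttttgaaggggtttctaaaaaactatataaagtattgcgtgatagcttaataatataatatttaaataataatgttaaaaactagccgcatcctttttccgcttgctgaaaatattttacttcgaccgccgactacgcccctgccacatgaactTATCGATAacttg
Deaf1/Fibp, chr3L:19817968-19818173: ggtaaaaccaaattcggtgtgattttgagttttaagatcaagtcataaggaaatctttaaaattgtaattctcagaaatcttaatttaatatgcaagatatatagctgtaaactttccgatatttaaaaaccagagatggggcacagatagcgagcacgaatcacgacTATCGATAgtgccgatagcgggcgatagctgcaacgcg
gb/CG5815, chr3R:27112271-27112565: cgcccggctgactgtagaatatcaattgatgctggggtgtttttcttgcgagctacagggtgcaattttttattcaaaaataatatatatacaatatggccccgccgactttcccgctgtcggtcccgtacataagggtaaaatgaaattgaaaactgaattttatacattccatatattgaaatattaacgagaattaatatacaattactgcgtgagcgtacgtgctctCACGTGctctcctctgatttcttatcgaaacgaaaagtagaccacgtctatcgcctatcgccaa

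The summit was base 109 of the Art3/mRpS10 gap and base 128 of the CHMP2B/Tcs5 gap, close to the middle of both. At Lamtor3/fws it was base 150, at RpS25/CG4820 base 29, at Deaf1/Fibp base 171 and at gb/CG5815 base 125. At RpS27/Nup37 and Chro/Ssl1 the summit lay outside the gap, 2 and 88 bp from the start of RpS27 and of Chro, in the 5' UTR of these genes. CACGTG in the gb/CG5815 gap was more than 50 bp from the summit, so it did not count as a summit match below.

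The strongest member lay between CenG1A, which encodes a GTPase-activating protein of small GTPases, and mRpS23, a subunit of the mitochondrial ribosome. Its deposited signal was 516.2 in the optimal list, 268.1 in replicate 5 (rank 14) and 252.7 in replicate 1 (rank 7). CG3552/CG3437 had a signal of 460.8 and ranks of 15 and 18 in replicates 5 and 1. Chro encodes a protein of interband chromatin and the mitotic spindle, and Ssl1 a subunit of the general transcription factor TFIIH. Their peak had a signal of 447.7, with 225.5 in replicate 5 (rank 23) and 219.6 in replicate 1 (rank 15). The sources used here do not state the scale of the signal, so it ranks peaks within a list and is not compared across lists.

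Art3, an arginine methyltransferase gene, shared its peak with mRpS10, a further subunit of the mitochondrial ribosome (signal 419.8, ranks 29 and 14 in replicates 5 and 1). CHMP2B encodes a membrane-remodelling protein of the ESCRT-III complex and shared its peak with Tcs5 (signal 409.9, ranks 21 and 27). At Pal1/Pdrg1 the signal was 368.4, with ranks of 45 and 19, and at CG9147/Fbw5 it was 364.8, with ranks of 30 and 34. Both replicates placed these peaks near the top, but the peaks were picked for a high signal in a list derived from both replicates. Pex11ab, whose product divides peroxisomes, shared a peak with CG8320 (signal 354.6, ranks 26 and 36). Atat, a tubulin acetyltransferase gene, shared one with Shc, which encodes an adaptor of receptor tyrosine kinases (signal 322.4, ranks 97 and 17).

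The 25 strongest members were all among the 1117 strongest nuclear peaks of each replicate, with worst ranks of 137 in replicate 5 and 255 in replicate 1. Picking them by the signal of a list derived from both replicates favours such ranks. They included Sesn, which encodes a sestrin that restrains TOR signalling, at a start shared with CG46429 on the same strand (signal 277, ranks 86 and 38). They also included the mitochondrial protease gene Lon with PIG-F, a gene of GPI anchor synthesis (signal 221.2, ranks 53 and 255), and Stt3A, an oligosaccharyltransferase subunit gene, with bves (signal 228.8, ranks 59 and 154). CIA30, an assembly factor gene of respiratory complex I, stood beside CG7601 (signal 257.1, ranks 61 and 57). Elp5, a subunit gene of the Elongator complex, stood beside CG1275 (signal 223.1, ranks 75 and 143). The Rac-like GTPase gene Mtl stood beside CG5611, with a rank of 35 in replicate 5 and 202 in replicate 1. The remaining genes at these 25 peaks were CG8360, CG8372, CG11309, CG7632, Mnat9, CG1792, CG5098, CG5757, tank, CG12194, mRpL23, CG9004, CG8892, CG34126, RpS27, Nup37, Adck1, CG4741, RpL7 and Ripalpha, with signals between 222.8 and 348.9. In the nuclear optimal list as a whole, members took 5 of the first 25 places and 26 of the first 100, beside 21.4% of all its places.

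Members were more frequent in the optimal list than among weaker peaks. Outside the optimal list, the pooled relaxed list held 27272 nuclear peaks, and 1463 of them (5.36%) had a summit at a shared promoter, against 21.4% of the optimal peaks. Closeness to any gene start differed too, so the share was also taken among promoter peaks only. There, members were 239 of 637 optimal peaks (37.5%, 95% interval 33.8 to 41.3%) and 20.3% of the relaxed peaks outside the list (19.4 to 21.2%). Both intervals lie apart, although peaks are not replicates and the difference was not tested.

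The density of peaks pointed the same way. Positions with the starts of 2 or more genes within 500 bp made up 1.98 Mb, or 1.44% of the nuclear genome, and held 120 optimal peaks per Mb. Positions near the start of 1 gene held 29.8 per Mb and positions farther away 3.93 per Mb. Relaxed peaks outside the optimal list were also densest on shared promoters, at 737 per Mb against 430 near 1 gene and 164 elsewhere. Optimal peaks were 14.04% of all relaxed and optimal peaks on shared promoters, 6.48% near 1 gene and 2.34% elsewhere.

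Counted over genes, 4309 protein-coding genes had the start of another gene within 500 bp of a start of their own. Of these, 503 (11.7%, 95% interval 10.7 to 12.7%) had an optimal summit at a promoter, against 348 of 9659 genes without such a neighbour (3.60%, 3.25 to 3.99%). In the strongest peaks of replicate 5 the shares were 11.7% and 3.72%, and in those of replicate 1 they were 10.5% and 3.29%. Among genes with any relaxed promoter peak the shares were 18.0% of 2787 and 9.05% of 3847. A peak on a shared promoter counts for both of its genes, so these genes are not independent of each other. A gene with a neighbour can also be counted through a peak at the neighbour's start, which raises its share against that of genes without one.

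Nearly all members lay at head-to-head genes. Of the 239, 219 were divergent (91.6%, 95% interval 87.4 to 94.5%), meaning that the 2 nearest genes are read away from each other, 15 had both genes on 1 strand and 5 were convergent. Among the relaxed shared-promoter peaks outside the optimal list, 85.4% were divergent, 11.3% had both genes on 1 strand and 3.28% were convergent. Most members, 228, had 2 genes. There were 9 with 3 genes, among them RpL13A/Dph4/Spec2 (signal 123.3) and Iswi/Mvk/CG33672 (signal 81.6), where Iswi encodes a chromatin-remodelling ATPase and Mvk mevalonate kinase. One member, at COX6B, CG18809, CG33932 and Rpp20, had 4 genes (signal 74.3, ranks 824 and 2964).

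Some members count as shared because several genes are annotated at 1 start. In 12 of the 15 same-strand members the nearest genes had 1 identical start, as at RpS27A/Ip259 (signal 82.8), CG8788/CG44286 (signal 123.2) and lama/CG46456 (signal 88.1). One peak on 3R (summit 21365362, signal 149.8) counted 10 genes, all of them pre-mod(mdg4) transcripts annotated at 1 start in the trans-spliced mod(mdg4) locus. It was matched in replicate 1 (rank 680) and not in replicate 5. In all, 17 members had 2 genes at an identical start. The 5 convergent members were Adck1/CG4741 (signal 240.9), CG7220/Daao1 (99.8), Dhod/Sys1 (96.3), Dp/Fsn (90.1) and Ccm3/CG6136 (74.8). At these the genes are read towards each other, from starts 26 to 255 bp apart.

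The gap between the starts of the divergent members had a median of 278 bp and ranged from 6 bp at CG3032/CG4593 to 687 bp at app/CG32100. The summit lay between the starts in 178 of the 219 (81.3%, 95% interval 75.6 to 85.9%), against 881 of 1249 divergent relaxed peaks outside the optimal list (70.5%, 68.0 to 73.0%). Over all 239 members, the nearest start was a median of 69 bp from the summit and the start of the second gene 197 bp. At single-gene promoters the nearest start was a median of 145.5 bp away. At a member the nearest start is the closest among the starts of different genes. The class rule itself therefore favours a shorter distance at members, and nothing is concluded from the difference between these medians. Of the 239 member summits, 140 were intergenic, 58 in a 5' UTR, 40 in an intron and 1 in a 3' UTR.

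**Figure D1:**
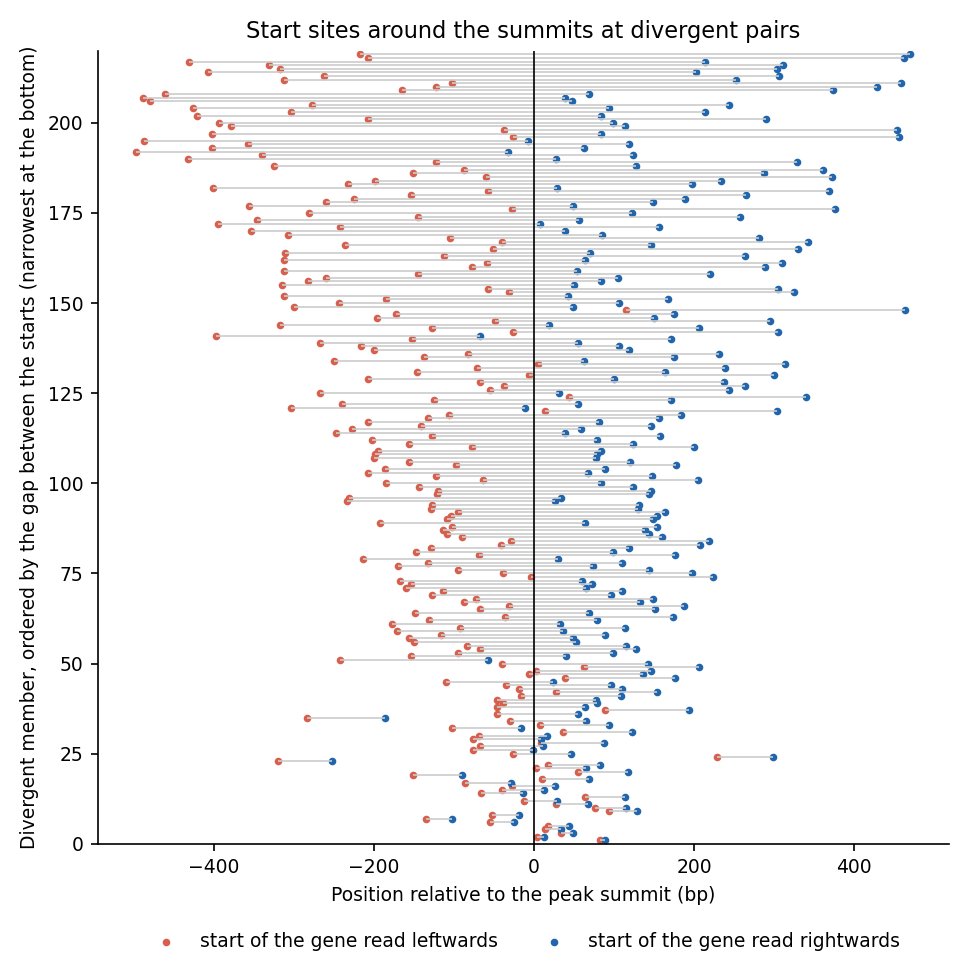
Position of both starts (bp from the summit, horizontal) for the 219 divergent members, ordered from the narrowest gap at the bottom to the widest at the top (vertical), with a grey line for the gap between them. The line crosses the summit in 178 members, and most gaps that miss it are in the lowest rows, where the starts are under 100 bp apart.

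The place of the summit varied with the width of the gap. With starts under 100 bp apart, 8 of 35 summits lay between them (22.9%, 95% interval 12.1 to 39.0%), against 31.3% of the relaxed peaks outside the optimal list (24.9 to 38.4%). With 100 to 200 bp, 14 of 20 did (70%), against 53.1%. With 200 to 300 bp it was 68 of 71 (95.8%, 88.3 to 98.6%), against 69.7% of the relaxed peaks with the same gap (64.6 to 74.4%). With 300 to 400 bp it was 42 of 45 (93.3%), against 80.6%, and with 400 to 500 bp 28 of 30 (93.3%), against 87.8%. A wider gap leaves more room between the starts, and beyond 500 bp the rule itself fixes the answer, since all 18 such members lie between by construction. In narrow gaps the summit lay beside the starts, as at CG8360/CG8372 (gap 57 bp) and Elp5/CG1275 (gap 33 bp), with the summit in a 5' UTR at both.

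The share of pairs with a peak was then taken by the width of the gap. The genome held 2667 divergent pairs with starts at most 1000 bp apart, and 243 (9.11%, 95% interval 8.08 to 10.3%) had an optimal summit within 250 bp of the midpoint. The share was 10.98% for gaps under 100 bp, 8.52% for 100 to 200 bp, 12.7% for 200 to 300 bp, 12.8% for 300 to 400 bp, 8.18% for 400 to 500 bp and 3.56% (2.40 to 5.24%) for 500 to 1000 bp. Intervals of neighbouring widths below 500 bp overlapped, and the widest class lay below the others. The window bears on this, since at gaps over 500 bp both starts lie more than 250 bp from the midpoint, so that summits near a start can fall outside it. In replicate 5 the share was highest, at 15.8%, for 200 to 300 bp, and in replicate 1, at 11.3%, for 300 to 400 bp. Among pairs with a relaxed summit near the midpoint, 20.7, 17.2, 20.2, 19.5, 13.3 and 10.04% of the same 6 classes had an optimal one. There the intervals of the 2 widest classes overlapped, at 8.92 to 19.3% and 6.84 to 14.5%.

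**Figure D2:**
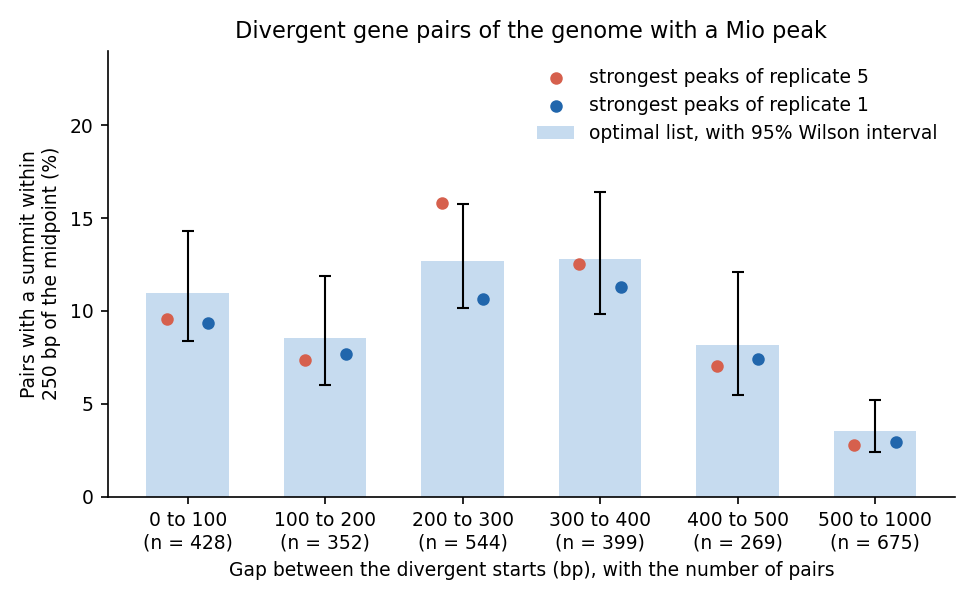
Share of the genome's divergent gene pairs with a summit within 250 bp of the midpoint (percent, vertical) by the gap between the starts (bp, horizontal). Bars with 95% Wilson intervals show the optimal list and points the strongest peaks of each replicate; the bar for 500 to 1000 bp, at 3.56%, is the lowest, in the optimal list and in both replicates.

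Of the gene sets, 6 carried 2 summits each. They include Bdp1/CG6565 (209 bp apart, signals 147.1 and 99.2), Dp1/imd (202 bp, 135.1 and 106.1), Nubp2/Pss (201 bp, 128.5 and 74.9), CG18428/eIF4EHP (200 bp, 125.3 and 95.9) and PIG-L/psidin (234 bp, 83.1 and 81.6). Here Bdp1 encodes a subunit of the RNA polymerase III factor TFIIIB, imd an adaptor of the innate immune pathway of that name, and eIF4EHP a cap-binding repressor of translation. The 239 members therefore stand for 233 distinct sets of genes. The smallest distance between such summits was 200 bp.

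The signal of the members overlapped with that of the other optimal peaks. Their median signal was 96.4 (range 73.8 to 516.2, 95% interval of the median 91.9 to 101.5), against 100.3 at single-gene promoters (96.0 to 105.1) and 96.9 at peaks with no start nearby (94.6 to 101.1). Of the 239, 109 (45.6%, 39.4 to 51.9%) were above the single-gene median. The 15 same-strand members had a median of 81.2 and the 219 divergent ones of 97.4. All of these values come from a list that was itself selected on strength in the pooled replicates.

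Each member was matched to a replicate peak with its summit within 100 bp. The median rank was 550.5 in replicate 5 (range 14 to 7321, 230 matched, 95% interval of the median 460 to 636). In replicate 1 it was 757 (range 7 to 23602, 225 matched, interval 611 to 919). These intervals overlap, but they ignore that largely the same members were ranked in both. The member-by-member comparison is given below. Single-gene promoter peaks had medians of 541 and 588. Of the members, 217 (90.8%) were matched in both replicates, against 91.5% of the single-gene promoter peaks. Among the 1117 strongest of both replicates were 111 members (46.4%, 95% interval 40.2 to 52.8%), against 51.8% of the single-gene promoter peaks (46.86 to 56.6%). A further 72 (30.1%) were among the strongest of replicate 5 only, 34 (14.2%) of replicate 1 only and 22 (9.21%, 6.16 to 13.5%) of neither. At single-gene promoter peaks these 3 shares were 26.1, 16.3 and 5.78% (3.88 to 8.52%). At peaks with no start nearby they were 21.25, 24.2 and 4.17% (2.71 to 6.35%). The share in neither was thus highest at members, though its interval overlaps those of both other classes.

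Ranked within each replicate, 80 of the 217 matched members (36.9%, 95% interval 30.7 to 43.5%) had the better rank in replicate 1. The share was 44.2% at single-gene promoters (39.2 to 49.4%) and 58.8% at peaks far from starts (54.1 to 63.3%). The replicates thus differed in how they ordered promoter and distal peaks. The summits of the 2 replicates were a median of 30 bp apart (0 to 153 bp). At the divergent members matched in both, the nearest gene was the same in 160 of 201 (79.6%), so the choice of the nearer gene of a pair changed with the replicate in the rest.

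**Figure D3:**
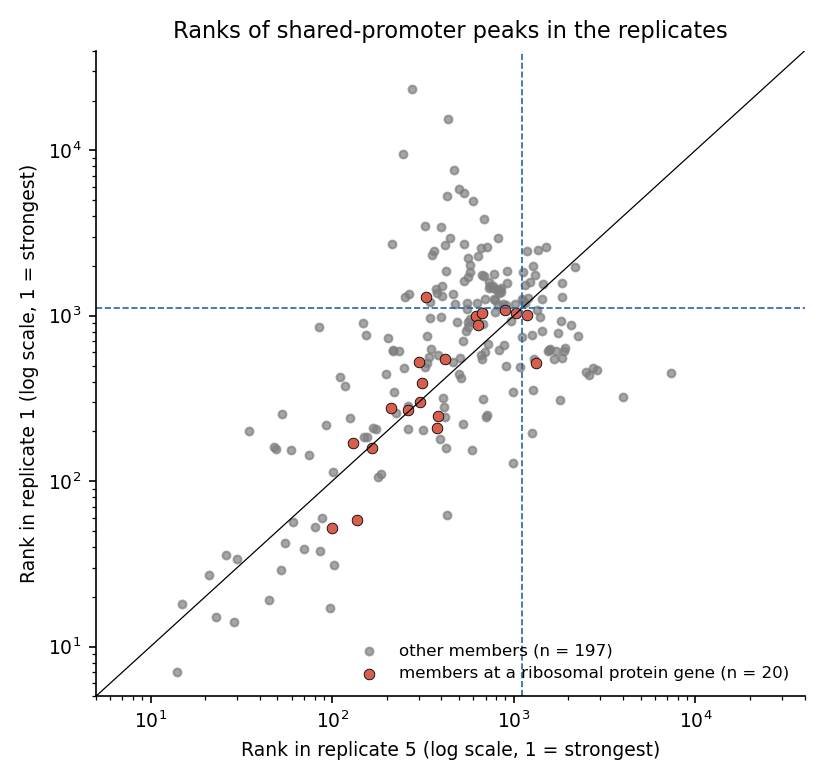
Rank of the 217 matched members in replicate 5 (horizontal) and replicate 1 (vertical), both on log scales with 1 as the strongest; dashed lines mark rank 1117 and the solid line equal ranks. More points lie above the solid line than below it, since 80 of 217 had the better rank in replicate 1, and the 20 red points, at ribosomal protein genes, have ranks from 100 to 1332 in replicate 5 and from 52 to 1298 in replicate 1.

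Single members could differ widely between replicates. Of the 217, 12 had ranks over 10-fold apart (5.53%, 95% interval 3.19 to 9.42%). The share was 8.52% at single-gene promoter peaks (31 of 364) and 6.31% at peaks far from starts (28 of 444). Such differences are therefore not particular to members. The peak at CG4338/Cp190, where Cp190 encodes an insulator protein, ranked 276 in replicate 5 and 23602 in replicate 1, with signals of 80.8 and 8.92. Hat1/Rpn5, a histone acetyltransferase gene beside a proteasome lid gene, ranked 246 and 9560. Daxx/Sec61alpha, a histone chaperone gene beside that of the protein translocation channel, ranked 432 and 15524. CalpA/hts ranked 471 and 7565, and Bulli/CG10147 213 and 2715.

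In the other direction, CG6204/SMC6, where SMC6 encodes a subunit of a DNA repair complex, ranked 7321 in replicate 5 and 452 in replicate 1. P5cr, a gene of proline synthesis, shared with GatA a peak at ranks 4011 and 323. The peak of sgll and CG2993 ranked 985 and 128, that of the tRNA methyltransferase gene Trmt6 and the nucleoside transporter gene Ent2 427 and 62, and that of CG2930 and the oligopeptide transporter gene yin 1266 and 195. The signals of the 2 last peaks in the optimal list were 170.9 and 118.3. For these members the replicates give no common level.

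Some members had no match within 100 bp. In replicate 5 these were led by the pre-mod(mdg4) peak, Sptz/ninaG (signal 131.5), PolD2/CG13933 (121), Ino80/Aptx (106.6) and crp/pkaap (101.3). PolD2 encodes a subunit of DNA polymerase delta and Ino80 a chromatin-remodelling ATPase. In replicate 1 they were led by Pss/Nubp2 (128.5), CG13901/CG13887 (109.9), Kmn2/CG2698 (107), Ino80/Aptx and MED27/elm (103.6). Ino80/Aptx is the 1 member that was matched in neither.

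Some peaks lay close to the 500 bp limit. Just inside it were Zif/CG9727, whose second start was 497 bp from the summit (signal 82.3), CG30349/CCT8 at 489 bp (93.1) and RpL31/CG12929 at 487 bp (89.6). Just outside were a summit at Snx21/aph-1 at 505 bp (105), Tsp42Eq/Tsp42Er at 511 bp (102.7) and CG45544/stg at 530 bp (123.4), all with a higher signal than the 3 inside. Another summit at Snx21/aph-1 is a member (signal 104.2). A start of a non-coding gene also lay within 500 bp at 4 members.

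Members were scarce on the X chromosome. Only 19 of 239 lay there (7.95%, 95% interval 5.15 to 12.1%), against 67 of 398 optimal peaks at single-gene promoters (16.8%, 13.5 to 20.8%) and 21.0% of those far from starts. X holds 14.6% of the base pairs that are near 2 or more genes, and 17.9% of the relaxed shared-promoter peaks outside the optimal list. The same order held in the strongest peaks of each replicate, with 17 of 243 shared-promoter peaks on X in replicate 5 (7.00%), against 18.9% at single-gene promoters. In replicate 1 it was 13 of 202 (6.44%), against 15.6%. Per Mb of shared promoter, X carried 65.6 optimal peaks and the large autosomal arms 130.4, while single-gene promoters had 29.1 on X and 30.3 on those arms.

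Pooled relaxed shared-promoter peaks outside the optimal list numbered 905 per Mb on X and 706 on the autosomal arms. The whole relaxed lists of the replicates differed here: X held 17.5% of the shared-promoter peaks in replicate 5 and 11.2% in replicate 1, against 22.2% and 14.4% of the single-gene ones. The 19 X members had a median signal of 84.7 (74.3 to 228.8), against 97.3 for the 220 others. They were led by bves/Stt3A, Seipin/Tsp3A (signal 125.5, ranks 408 and 319), Fum1/ND-ASHI (signal 120.1, ranks 332 and 518) and CG2930/yin. Seipin encodes a protein of lipid droplet formation, Fum1 a fumarase of the TCA cycle and ND-ASHI a subunit of respiratory complex I. No member lay on chromosome 4, for which no background share was taken, so this absence is not read as a scarcity.

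Of 17 gene lists, that of the cytosolic ribosomal proteins had the highest share of its genes at these peaks. The list was picked out with earlier results of these data known. Of its 86 genes, 35 had a neighbour within 500 bp, and 20 of those 35 were at a member peak (57.1%, 95% interval 40.9 to 72.0%), against 458 of all 4309 genes with a neighbour (10.6%). The strongest peaks of each replicate alone gave 20 genes in replicate 5 and 20 in replicate 1. Another 14 of the 86 were at a single-gene promoter peak only, against 367 of all 13968 genes. At any promoter peak it was 34 of 86, against 851 of 13968, counting both kinds of promoter. The 20 genes lay under 21 summits.

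RpS27 had the strongest of these peaks, with a signal of 241.2, and with 117.8 in replicate 5 (rank 100) and 121.2 in replicate 1 (rank 52). RpL7 followed with 222.8, and with 106.8 in replicate 5 (rank 137) and 114.6 in replicate 1 (rank 58). RpL34b (188.8) had ranks of 130 and 171 in replicates 5 and 1, and RpL28 (182.3), which shares its promoter with the translation initiation factor gene eIF1, 166 and 158. RpL41 (149) ranked 376 and 211, RpS25 (146.7) 210 and 276, and RpS21 (145.6) 305 and 299. All 7, taken as the strongest of these peaks in the optimal list, ranked 376 or better in replicate 5 and 299 or better in replicate 1.

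**Figure D4:**
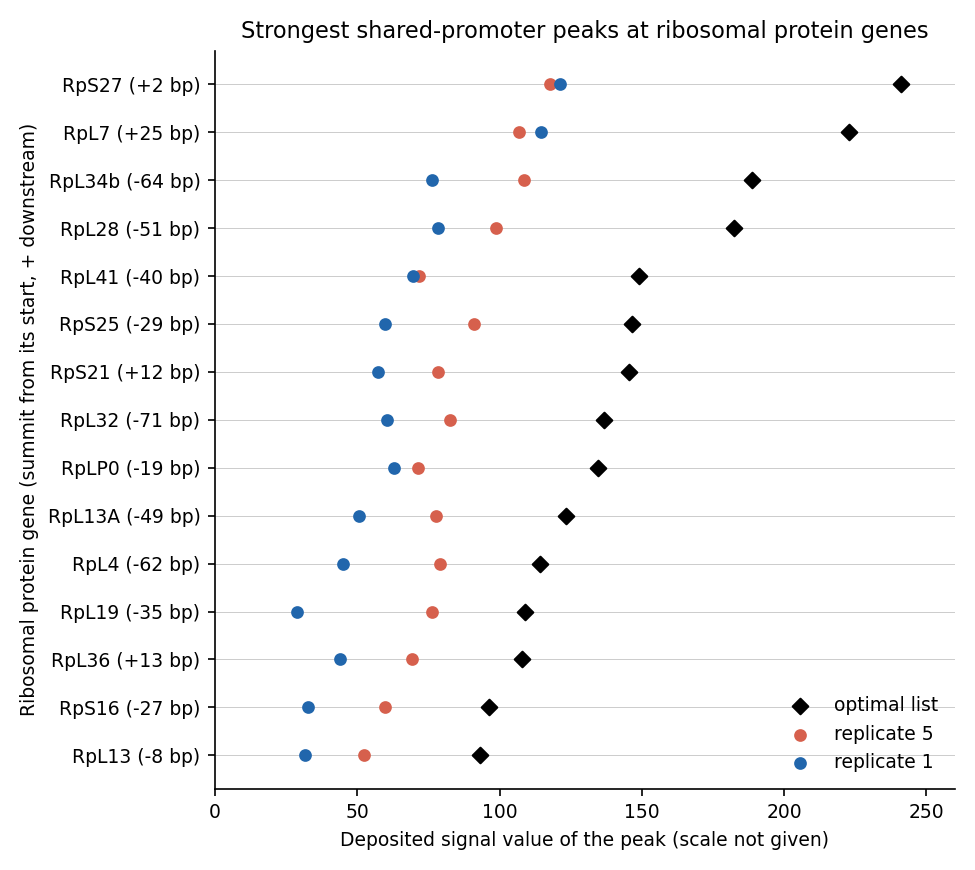
Deposited signal (horizontal, scale not given) of the 15 strongest member peaks at ribosomal protein genes (rows, with the distance of the summit from the gene's start, positive downstream) in the optimal list and in each replicate. Optimal values run from 93.0 at RpL13 to 241.2 at RpS27, and RpS27 has the highest of these values in each of the 3 lists.

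The summits at these genes sat close to the ribosomal protein start. The start of the ribosomal protein gene was the nearest in 19 of 21, and 15 of 21 summits were within 50 bp of it (71.4%, 95% interval 50.04 to 86.2%). Of the other 218 members, 33.5% were within 50 bp of their nearest start (27.6 to 40.0%). Upstream of the start by 8 to 71 bp lay, among others, the summits at RpL13, RpLP0, RpS16, RpS25, RpS27A, RpL19, RpL41, RpL13A, RpL28, RpL4, RpL34b and RpL32. Downstream lay those at RpS27, RpL31, RpS21, RpL36 and RpL7, by 2 to 25 bp. Of the 21, 17 were among the strongest of both replicates (81.0%, 60.0 to 92.3%), against 43.1% of the other members (36.7 to 49.8%).

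Other groups were nearer the background of 10.6%. Of 54 mitochondrial ribosomal protein genes with a neighbour, 6 were at a member peak (11.1%, 95% interval 5.19 to 22.2%). These include mRpS23 and mRpS10 above, mRpL23 with CG9004 (signal 243.3, ranks 49 and 156), mRpL24 (97.3, ranks 323 and 3493), mRpL21 (85.8, ranks 887 and 1085) and mRpL53 (82.1, ranks 764 and 1511). Of 41 nuclear respiratory chain genes 4 were, ND-MWFE (131.4), ND-ASHI (120.1), ND-24 (87.4) and COX6B (74.3), or 9.76%. Of 23 translation factor genes 3 were (13.0%), eIF1, eIF4EHP (125.3) and eIF3h (101.6). Of 22 aminoacyl-tRNA synthetase genes 4 were (18.2%), SerRS (108.4), GluProRS (89.2), AsnRS (82.3) and ArgRS-m (77.1).

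Among genes of Mediator and the general transcription machinery, 7 of 43 with a neighbour were at a member peak (16.3%, 95% interval 8.12 to 29.97%). They were led by Ssl1, MED30 (186.2, ranks 179 and 106), MED27 (103.6) and TfIIA-L (97.4). Of 24 proteasome genes 4 were (16.7%), Rpn5 (95.03), Rpn6 (94.0), Rpt5 (93.8) and Rpn2 (78.4), and of 25 V-ATPase and autophagy genes 5 were (20%, 8.86 to 39.1%). The latter were Vha100-2 (184.3, ranks 149 and 185), Vha44 (127.3, ranks 202 and 733), Vha36-1 (91.7), Atg18a (88.1) and Atg2 (80.01). Of 52 vesicle and ESCRT genes 4 were (7.69%), CHMP2B, Vps33B (120.3), Sec61alpha (114.9) and Vps60 (85.5). All of these intervals include the background.

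The rest of the groups had few members or none. In DNA replication and repair, 1 of 31 genes with a neighbour was at a member peak (3.23%), PolD2. The peak between Mcm2 and RPA1 (73.8) is outside this share, since the starts of these genes are over 500 bp apart. In RNA processing 2 of 29 were (6.90%), CstF64 (99.8) and SmD3 (76.2), and Cpsf100 (82.5) was at a peak without a start of a neighbour within 500 bp of its own. In mitochondrial import and assembly 1 of 6 was, Hsc70-5 (75.4). No gene was at a member peak out of 14 of ribosome biogenesis, 6 of glycolysis, 22 chemoreceptor genes and 5 cuticle protein genes with a neighbour. With the counts this low, the upper 95% limits were 21.5, 39.0, 14.9 and 43.4%. In the list of Mondo, Myc and related leucine zipper factors, 0 of 5 genes with a neighbour were (upper limit 43.4%). The gene crp of this list was at a member peak (101.3) but is outside this share, since it has no neighbour's start within 500 bp of its own. Absence from member peaks is not absence of promoter peaks. Of all 16 glycolysis genes, 5 were at a single-gene promoter peak, as was 1 of all 21 ribosome biogenesis genes. Among all 13968 genes, 367 were at a single-gene promoter peak only. No chemoreceptor or cuticle protein gene was at a promoter peak of either kind.

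CACGTG, the E-box of Mondo, was rare at the members. It was found within 50 bp of the summit in 2 of 239 members (0.837%, 95% interval 0.230 to 2.999%), at RpL7/Ripalpha and at Vha44/Hmgs, where Hmgs encodes HMG-CoA synthase. At RpL7 its centre was 6 bp from the summit and at Vha44 1 bp. The share was 2.01% at single-gene promoter summits, 0.825% at the midpoints of all 2667 divergent pairs and 1.05% at all 19276 annotated starts, so the members' share was not distinguishable from these. Among the strongest peaks of replicate 5 it was at 2.47% of shared-promoter summits, and among those of replicate 1 at 1.98%, close to the single-gene share. The looser CANNTG, which includes CACGTG, was at 32.6% of members and at 34.8% of the midpoints. Both strands were searched.

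TATCGATA, the DNA replication-related element, was at 18 of 239 members (7.53%, 95% interval 4.82 to 11.6%). Among the strongest peaks of replicate 5 it was at 4.94% of shared-promoter summits, and of replicate 1 at 6.44%. It was at 2.51% of single-gene promoter summits of the optimal list (1.37 to 4.56%) and 0.417% of distal ones. The interval of the members includes the shares at relaxed shared-promoter peaks outside the optimal list (5.81%), at the midpoints of divergent pairs (4.87%) and at all starts (5.198%). Member summits are also closer to a start than single-gene ones are, at a median of 69 against 145.5 bp. The class rule itself favours this, since the nearest start of a member is taken over the starts of different genes. Within the members, 7 of the 21 peaks at ribosomal protein genes had the word (33.3%, 17.2 to 54.6%), against 11 of the other 218 (5.05%, 2.84 to 8.81%). They include the peaks at RpL28, RpL41, RpS25, RpL19 and RpL36.

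At RpS25/CG4820, printed above, the word was centred 27 bp from the summit and 56 bp upstream of the RpS25 start. At Lamtor3/fws it was 43 bp from the summit and 10 bp upstream of the start of Lamtor3, which encodes a subunit of the Ragulator complex of TOR signalling. At Deaf1/Fibp it was 2 bp from the summit and 35 bp upstream of Deaf1. Others with the word were Rack1/mts (137.1), CG32856/Rbf2 (108.1) and RanBP3/Rpt5 (93.8). The factor that binds this word is encoded by Dref, and Dref itself shared a member peak with RpL13 (signal 93.0, ranks 891 and 1077), without TATCGATA within 50 bp.

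**Figure D5:**
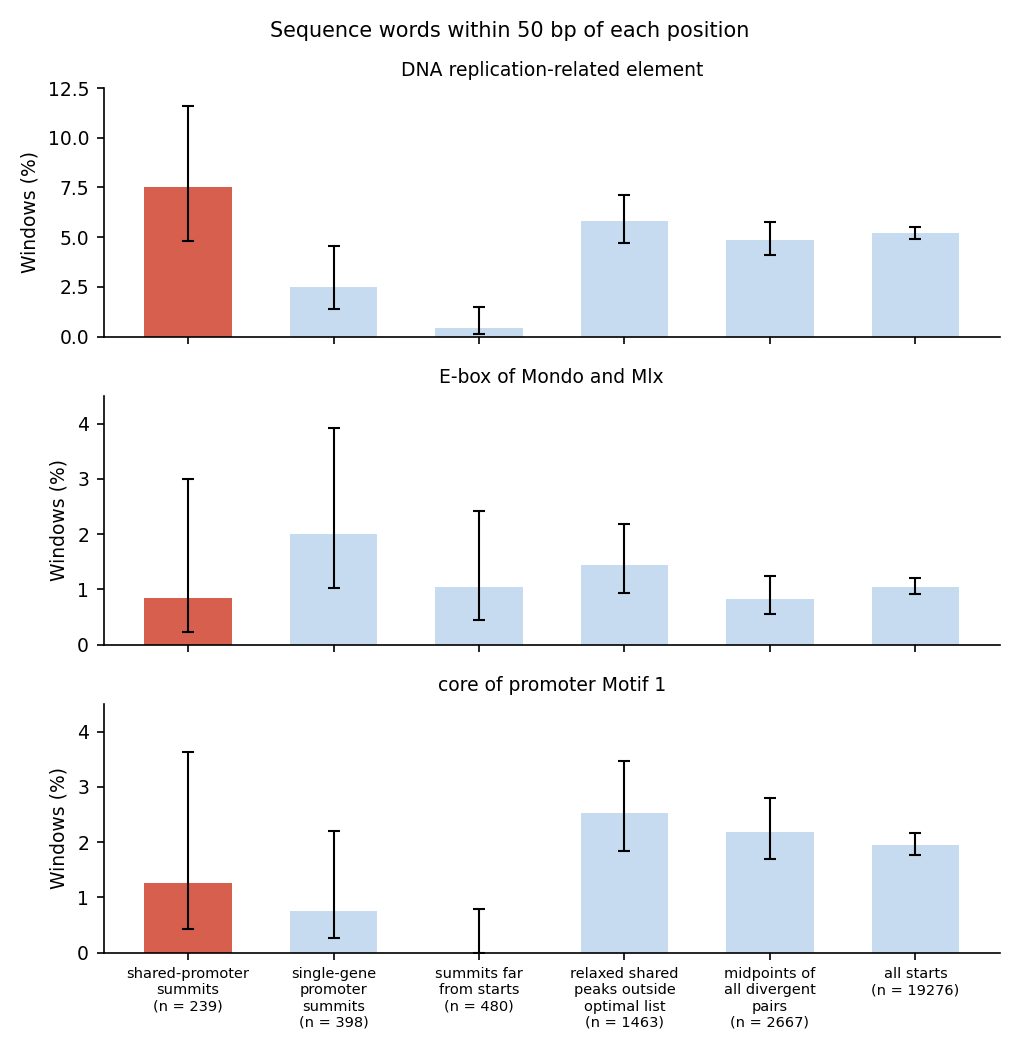
Share of windows with the DNA replication-related element, the E-box of Mondo and Mlx or the core of promoter Motif 1 within 50 bp (percent, vertical, with 95% Wilson intervals) for 6 classes of position (horizontal). Members, in red, are at 7.53% for the first word, and their intervals for all 3 words include the shares at the midpoints of all divergent pairs.

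Other short words gave a mixed picture. CGATA, the end of TATCGATA, was at 21.3% of members (95% interval 16.6 to 27.0%), 17.3% of single-gene promoter summits and 11.5% of distal ones. It was at 28.6% of relaxed shared-promoter peaks outside the optimal list, 23.6% of the midpoints and 25.9% of all starts. The members' share of this shorter word was therefore not above these last 3. GGTCACACT, the core of promoter Motif 1, was at 3 members, RpL7/Ripalpha, RpLP0/CG7130 and Phf5a/CG31638 (1.26%), against 2.17% of the midpoints. ACAGTG was at 11.7% of members (95% interval 8.23 to 16.4%), 12.3% of single-gene promoter summits and 11.5% of distal ones, against 4.80% of the midpoints and 5.44% of all starts. ACACTG was at 10.04% of members, 10.3% of single-gene promoter summits and 6.82% of the midpoints. These 2 words had been noted at the optimal summits as a whole, so their shares describe the members and do not mark them off. GAGAG, the GAGA factor site, was at 10.5% of members, 16.1% of single-gene promoter summits, 7.69% of the midpoints and 15.4% of all starts. TATAAA, the word of the TATA box, was at 18.0% of members and 15.1% of single-gene promoter summits. It was also at 22.7% of the midpoints and 18.2% of all starts, so its share at members was near that of all starts. The windows at members had a mean GC content of 36.9% (SD 9.60 over 239 windows), against 33.5% at the midpoints and 42.1% at all starts. The mean was 37.0% at distal summits, 37.8% at relaxed shared-promoter peaks outside the optimal list and 39.0% at single-gene promoter summits. The members' GC content is therefore not particular to them.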

How the data were processed

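Binding of GFP-tagged Mio was measured by ChIP-seq in 2 biological replicates. The authors deposited peak lists in narrowPeak format. Per the deposited text files, the relaxed list of each replicate was called on its alignments and a control alignment that both replicates share, and the optimal list was derived from these and a pooled relaxed list. The sources used here name no aligner, peak caller or threshold. The signal value of each peak is the authors' deposited one. The deposited q-values were not used. Depth per library is unknown.

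Summits were set against the transcript starts of Ensembl release 115 (BDGP 6.54) in dm6, with Python 3.11.15, numpy 2.4.6 and pandas 2.3.3. Peak ends lay within the reference arms. The relaxed nuclear lists held 29963 peaks (replicate 5), 29988 (replicate 1) and 28389 (pooled). For single replicates, their 1117 strongest nuclear peaks were taken. The scripts were tested on simulated data. Sequences come from the dm6 reference genome. No test was run. Some ribosomal protein genes are counted but not reported by name here.

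The members, gene lists and words were chosen with earlier results of these data known. Named genes are those at the 25 strongest members, up to 4 per list by signal, at peaks with the most genes, beside the 500 bp limit, with the 5 largest rank ratios each way, up to 5 unmatched, and up to 10 with a word. Beyond this rule, ribosomal protein peaks, X members, convergent, same-strand and double summits and Dref were named after their values were seen, as were the remaining list members and the printed sequences. Alternatives were other distances, start definitions, lists and windows.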

Additional observations from a re-analysis of the deposited data

How the results depend on the processing

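The share of members on X, whose alternatives were chosen after it was seen, ranged from 5.26 to 9.90% over 11 alternatives, and 20 ribosomal protein genes were counted in each replicate alone. With starts within 200 bp, 124 summits were shared, 25.4% of promoter summits, 74.5% of divergent ones lay between the starts, and 55.6% exceeded the single-gene median signal, so the order against that median depended on the distance. The share was also above 50% with starts inside the peak interval (51.6%) and in replicate 5 alone (51.9%). With 1000 bp, 41.4% of promoter summits were shared. With starts inside the peak interval, 93 summits were shared (22.6% of promoter summits), 84.9% of them divergent and 68.4% of those between the starts. With 1 start per gene, 43.1% of promoter summits were shared, 86.9% of them divergent, with 72.6% between the starts. Genes of every biotype gave 85.9% divergent, merging same-strand starts within 10 bp 97.0%, and the 558 strongest optimal peaks 114 members, 95.6% divergent.

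Matching summits within 50 bp left 69.9% of members matched in both replicates and 39.3% among the strongest of both, and 250 bp matched 96.7%. The strongest peaks of single replicates gave 7.87 to 9.04% of divergent pairs and 10.5 to 11.7% of genes with a neighbour. Among promoters with a relaxed peak, 17.3% of pairs, 18.0% of genes with a neighbour and 9.05% of genes without were bound. Within 25 bp, TATCGATA was at 2.51% of members, ACAGTG at 3.77% and GGTCACACT at 0.418%. Within 100 bp, TATCGATA was at 11.7%, ACAGTG at 22.2%, and CACGTG and GGTCACACT at 2.51% each. A longer window holds more bases, so shares are compared only at equal length. Counts for the gene lists moved by over 1.5 times in 6 of 34 alternatives, all with counts of 7 or fewer. The 1117 strongest pooled relaxed peaks gave the same 239 members, since they are nearly the same list.

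No paired analysis was possible because the labels hold no second group to pair with; contrasts of peak classes within the 2 replicates are given as values only. Both replicates were called against 1 control, so its errors reach both lists, and no untagged sample was analysed here. The depth of the libraries is unknown, so a lower rank in 1 replicate cannot be set against its reads.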
